A study of Mus musculus with 10 samples.

Results

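Dense hnRNP L clusters are stretches of chromosome in which many peaks of the RNA-binding protein hnRNP L lie close together. Peaks of each hnRNP L list were joined into a chain wherever the gap between neighbours was at most 100 kb. Chains of at least 10 peaks were kept, and those on distal chromosome 4 were left out. The untreated list gave 12 chains with 293 of 1120 hnRNP L peaks (26.2%, exact Clopper-Pearson 95% interval 23.6 to 28.8%). The Adriamycin list gave 13 chains with 287 of 1022 peaks (28.1%, 25.3 to 30.9%). The chains were chosen by the spacing of the peaks themselves, so their density is a description and not a result.

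The cells were R1E, a line of mouse embryonic stem cells of a mixed C57BL/6X129Sv background, grown with leukemia inhibitory factor. They were either left untreated or given 0.5 uM Adriamycin for 8 h. Chromatin immunoprecipitation with sequencing was done for 5 targets in each condition, so the series holds 10 peak lists, with 1 library per target and condition. No comparison between conditions therefore has a replicate check, no p-value is given, and intervals cover counting error only. The lists carry no read depth, and a peak missing from a list may have fallen below the calling threshold.

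hnRNP L is an abundant nuclear protein that binds RNA rich in CA and controls alternative splicing, RNA stability and polyadenylation. It is not known as a sequence-specific DNA-binding protein, so in fixed chromatin it can be recovered through nascent RNA or partner proteins. Adriamycin (doxorubicin) traps topoisomerase II on DNA and causes strand breaks. The other targets mark defined chromatin states. H3K4me3 lies at active and poised promoters, H3K27me3 is laid down by Polycomb complexes, H3K79me2 follows transcribed gene bodies, and RNA polymerase II (Pol II) marks transcription itself.

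Chains of both conditions overlapped at most places and together defined 14 loci. Of these, 8 lay on numbered chromosomes or X, 1 on chromosome Y and 5 on unplaced contigs of the mm9 assembly (chr8_random and chrUn_random). These contig sequences string together pieces whose true neighbours are unknown, so a chain there need not be one stretch of a chromosome. A chain was present in both conditions at 11 loci and in 1 condition at 3. Loci on the same chromosome are told apart by letters in order of position. No gene annotation or sequence on mm9 was used here, so the genes and the sequence at the loci are not described.

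The locus on chromosome 5 (chr5:14903837-15222019) held the most peaks. The untreated list had 67 peaks there and the Adriamycin list 64, over 318.2 kb. The untreated peaks took up 33.1% of its sequence and the Adriamycin peaks 30.5%, and the median peak was 1240 bp and 1156 bp wide. Its strongest untreated peak was at chr5:14994259-14997412 with a score of 865.14, and its strongest Adriamycin peak at chr5:15183521-15187626 with a score of 831.66. The score is the authors' value per peak from MACS. In that program it equals −log10 of p multiplied by 10, and peaks were ranked by it only within a list. The locus was thus made of many peaks of modest score, with medians of 119.14 and 117.53.

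The second locus on chromosome 8 (8 B, chr8:71942414-72111579) held 38 untreated and 32 Adriamycin peaks over 169.2 kb. Peaks covered 38.8% and 37.0% of its bases. The strongest peak was at nearly the same place in both lists, at 71995499-72004031 in untreated cells (score 2133.48) and 71995521-72003128 after Adriamycin (score 1942.32). The other peaks were weaker, with median scores of 104.95 and 126.455 over the whole locus.

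The locus on chromosome Y (chrY:2651704-2774837) came next by peak number, with 32 untreated and 37 Adriamycin peaks. These were all of the chromosome Y peaks in either hnRNP L list, and the locus ended at the highest peak end of chromosome Y in any of the 10 lists. The strongest stood apart at the start of the locus, at 2651704-2652693 in untreated cells (score 2978.48) and 2652043-2652865 after Adriamycin (score 3058.02). The next 35.9 kb held no hnRNP L peak in either list. The remaining peaks were narrow, so that the median over the locus was 840.5 bp and 817 bp.

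**Figure D1:**
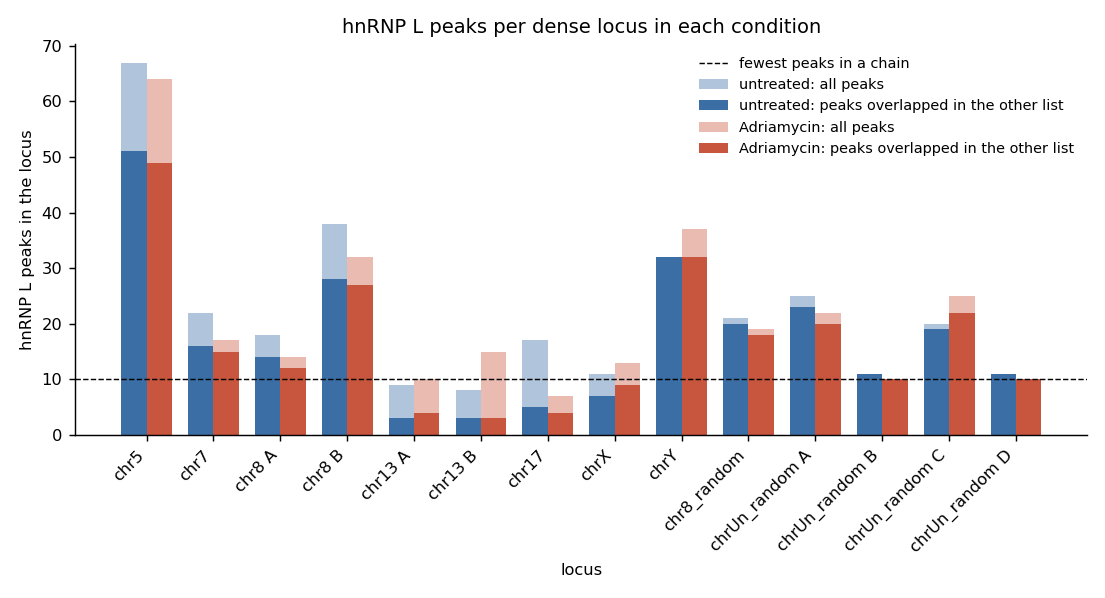
hnRNP L peaks in each of the 14 loci (x axis) as deposited (y axis, number of peaks), for untreated (blue) and Adriamycin (red) lists, with the solid part of each bar for peaks overlapped by a peak of the other list. Chromosome 5 reaches 67 and 64 peaks, and the 3 loci on chromosomes 13 and 17 have the smallest solid parts.

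The other loci on numbered chromosomes and X held between 7 and 22 peaks per list. On chromosome 7 (chr7:66929135-67041104) there were 22 untreated and 17 Adriamycin peaks. The first locus on chromosome 8 (8 A, chr8:19679281-19910078) had 18 and 14, and they were wide, with medians of 4976 bp and 5122 bp. Its Adriamycin chain held 13 of the 14 and ended at 19803100, before a long empty stretch. It held 12 of the 22 untreated and 9 of the 20 Adriamycin chain peaks on numbered chromosomes and X with a score of at least 500. On chromosome X (chrX:166423553-166631689) there were 11 and 13 peaks, and the untreated locus ended at the highest peak end of chromosome X in any of the 10 lists. The X locus held 2 peaks with a score of at least 3100 in each list.

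Strong peaks made up a larger share of the contig chains than of the chains on numbered chromosomes and X. On chr8_random (674437-849586) the untreated list had 21 peaks and the Adriamycin list 19, and the widest was 24019 bp in untreated cells and 29647 bp after Adriamycin. The chrUn_random loci A to D (3396028-3659061, 4735784-4774747, 5090561-5342308 and 5728530-5899352) held 25, 11, 20 and 11 untreated peaks and 22, 10, 25 and 10 Adriamycin peaks. In contig chains 55 of 88 untreated peaks (62.5%) and 55 of 86 Adriamycin peaks (64.0%) had a score of at least 500. In chains on numbered chromosomes and X these were 22 of 173 (12.7%) and 20 of 164 (12.2%). Contig peaks outside the chains reached this score in 30 of 70 (42.9%) and 30 of 67 cases (44.8%). Peaks outside dense chains on numbered chromosomes and X did so in 166 of 588 (28.2%) and 166 of 505 (32.9%). The densest contig locus was B of chrUn_random, where peaks covered 81.1% of 39.0 kb in untreated cells and 79.1% after Adriamycin.

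The 3 loci with a chain in 1 condition lay close to the threshold in the other. The chromosome 17 locus (chr17:6378535-6527797) was a chain of 17 untreated peaks, and the Adriamycin list had a run of 9 peaks there, at 6379235-6541155. Locus 13 A (chr13:65585860-65760618) was a chain of 10 Adriamycin peaks and locus 13 B (chr13:66515658-66845111) one of 15, and the untreated list had a run of 9 peaks at each. These runs were among the groups of 8 or 9 peaks just below the threshold, of which there were 6 in untreated cells and 3 after Adriamycin. The others were on chromosome 5 at 26342310-26446915 in the untreated list (8 peaks, and 8 in the Adriamycin run), on chrUn_random at 4233180-4323556 (9 and 8), on chr1_random at 791853-880798 (8 untreated peaks) and on chromosome 6 at 47601414-47723463. The group on chromosome 6 had 8 untreated peaks with a median width of 8763.5 bp and a median score of 1555.83, and all 8 had a partner. Just inside the threshold, with 10 or 11 peaks, were locus 13 A, the untreated X chain, and chrUn_random loci B and D.

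The next comparison asked how many chain peaks were found again in the other condition. A peak had a partner when an hnRNP L peak of the other list overlapped it by at least 1 bp. Partners were found for 237 of 293 untreated chain peaks (80.9%, 75.9 to 85.2%), against 63.9% of all untreated hnRNP L peaks. After Adriamycin they were found for 230 of 287 (80.1%, 75.0 to 84.6%), against 69.6% of all. Both backgrounds include the chain peaks themselves and the peaks on contigs and chromosome Y. In the dense chains of distal chromosome 4, which held 0 peaks with a score of at least 500, partners were found for 88 of 169 (52.1%, 44.3 to 59.8%) and 88 of 163 (54.0%, 46.0 to 61.8%). Dense loci also give more bases to hit by place alone, and the part of that in these shares was not tested.

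Partners varied widely among the loci. On chromosome Y every one of 32 untreated peaks had a partner (100%, 89.1 to 100%), and 32 of 37 Adriamycin peaks did (86.5%, 71.2 to 95.5%). In contig chains it was 84 of 88 (95.5%, 88.8 to 98.7%) and 80 of 86 (93.0%, 85.4 to 97.4%). In chains on numbered chromosomes and X it was 121 of 173 (69.9%, 62.5 to 76.7%) and 118 of 164 (72.0%, 64.4 to 78.7%). That range includes the chromosome 5 locus, with 51 of 67 and 49 of 64. Of the hnRNP L peaks outside dense chains on numbered chromosomes and X, 344 of 588 (58.5%) and 344 of 505 (68.1%) had a partner. These shares lay below the chain interval in untreated cells and within it after Adriamycin. In the 3 loci with a chain in 1 condition, 11 of 34 untreated and 11 of 32 Adriamycin peaks had a partner. These 3 loci were set apart because the other list formed no chain there, so fewer partners are partly built into the choice.

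The loci also differed in shared bases. The bases covered in both lists, as a share of those covered in either, came to 94.8% at chrUn_random B, 91.8% at D and 90.8% at chr8_random. They came to 71.6% at 8 A, 63.2% at 8 B, 60.6% on chromosome Y, 57.2% on X, 52.4% on chromosome 5 and 43.8% on chromosome 7. At 13 A, 13 B and 17 they were 21.6%, 12.1% and 8.83%. At these 3 loci the peaks were also weak, with untreated median scores of 69.54, 97.35 and 62.36. The chromosome Y locus had a median of 89.08, in the same range, and 60.6% of its covered bases were in both lists. However, peaks covered 22.3% (untreated) and 24.1% (Adriamycin) of the chromosome Y locus. They covered 5.18% and 4.53% of 13 A, 2.82% and 4.84% of 13 B, and 12.3% and 6.23% of 17. Low sharing at these 3 loci is also partly built into their choice.

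**Figure D2:**
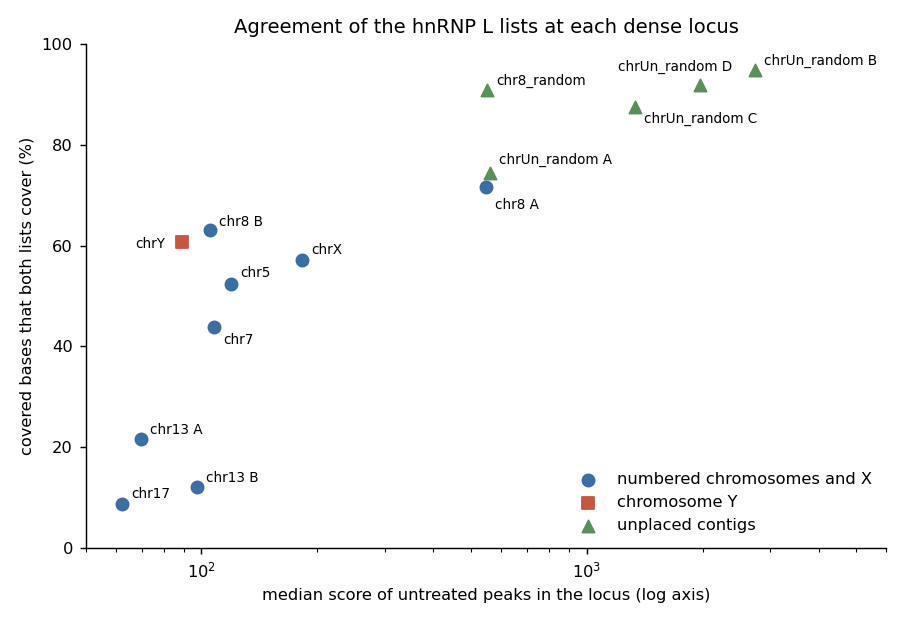
Share of covered bases that both hnRNP L lists cover (y axis, %) against the median score of untreated peaks (x axis, log scale) for the 14 loci, by kind of chromosome. Contig loci lie at the upper right (74.4 to 94.8%), and the loci on chromosomes 13 and 17 at the lower left (8.83 to 21.6%).

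Partner shares were higher at higher scores. Among untreated chain peaks, 58 of 101 with a score under 100 had a partner (57.4%, 47.2 to 67.2%), 102 of 114 at 100 to 500 (89.5%, 82.3 to 94.4%) and 77 of 78 at 500 and above (98.7%, 93.1 to 100%). On numbered chromosomes and X, chain peaks under 100 had a partner in 34 of 75 cases (45.3%, 33.8 to 57.3%), and hnRNP L peaks outside dense chains in 49 of 257 (19.1%, 14.5 to 24.4%). After Adriamycin these were 41 of 79 (51.9%, 40.4 to 63.3%) and 53 of 189 (28.0%, 21.8 to 35.0%). At 100 to 500 the intervals overlapped, with 86.8% and 78.2% in untreated cells and 89.2% and 84.0% after Adriamycin. In the dense chains of distal chromosome 4, peaks under 100 had a partner in 55 of 116 untreated cases (47.4%). After Adriamycin it was 51 of 112 (45.5%). These shares lay within the intervals of chain peaks under 100 on numbered chromosomes and X. The higher share of weak peaks was thus also seen in the chains left out here. At 100 to 500 the distal chromosome 4 chains had lower shares, 33 of 53 (62.3%) and 37 of 51 (72.5%).

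The strongest untreated chain peak without a partner lay in locus 8 A at chr8:19852966-19865696. It was 12731 bp wide with a score of 1112.78, and it was the only peak of the 56 unpartnered untreated chain peaks with a score of at least 500. The strongest of 57 unpartnered Adriamycin chain peaks lay in the same locus at chr8:19787964-19792282, with a score of 873.7 and a width of 4319 bp. The peaks of 8 A were therefore not all alike in both lists, although 14 of 18 untreated and 12 of 14 Adriamycin peaks had a partner.

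Spacing differed between the loci. On chromosome Y the centres of successive peaks lay 2.0 to 2.5 kb apart in 14 of 31 cases in untreated cells (45.2%) and in 23 of 36 after Adriamycin (63.9%). The median distance was 2.40 kb and 2.30 kb, and the middle part of the distances ran from 2.08 to 2.92 kb and from 2.13 to 2.41 kb. On chromosome 5 the fullest class of the same width held 13 of 66 distances (19.7%, 2.0 to 2.5 kb) and 10 of 63 (15.9%, 1.5 to 2.0 kb). On 8 B it held 6 of 37 and 5 of 31. On chromosome 7 it held 10 of 21 in untreated cells (2.5 to 3.0 kb) but 3 of 16 after Adriamycin. Some chromosome Y peaks also had the same width to the base as another peak of the locus, 5 of 32 in untreated cells and 5 of 37 after Adriamycin. At 8 B this held for 4 of 38 and 0 of 32, and on chromosome 5 for 0 of 67 and 2 of 64. How many equal widths would arise by coincidence was not tested.

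**Figure D3:**
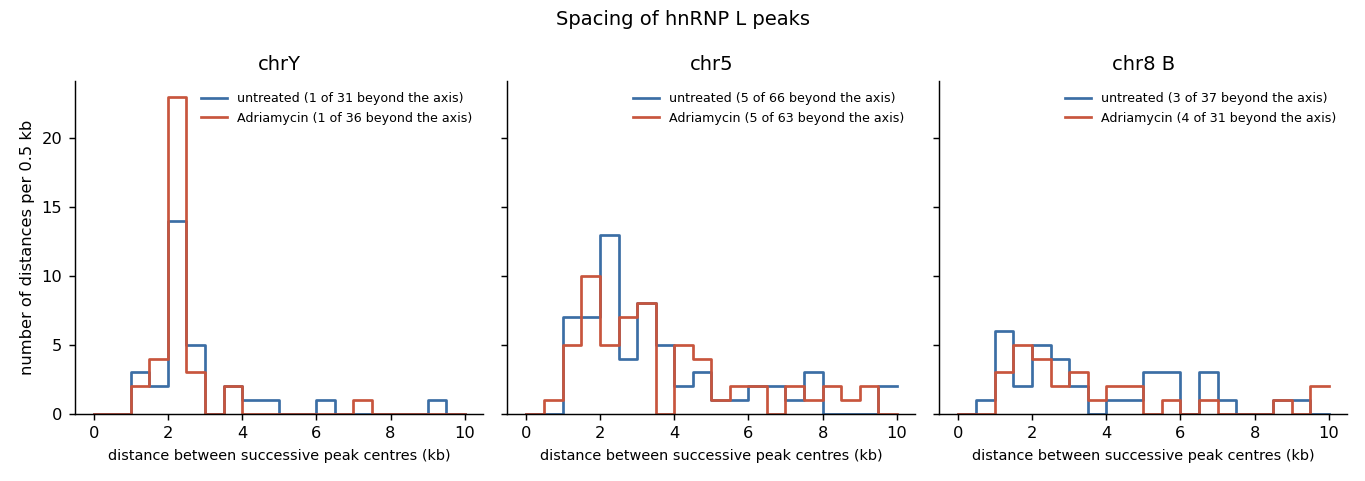
Distances between the centres of successive hnRNP L peaks (x axis, kb) on chromosome Y, chromosome 5 and locus 8 B, counted per 0.5 kb (y axis, number of distances), for untreated (blue) and Adriamycin (red) lists. Chromosome Y shows a single tall class at 2.0 to 2.5 kb with 14 and 23 distances.

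At 7 of the 14 loci the longest stretch with no hnRNP L peak in either list was 45 to 65 kb. It measured 49.8 kb on chromosome 5 (15062745-15112584), 50.3 kb on chromosome 7 (66951779-67002053) and 49.9 kb in locus 8 A (19803101-19852965), and 0 peaks of any other target lay in these 3 stretches. In 13 A (60.5 kb) the other targets had 21 peaks in the stretch, and on X (57.1 kb) 1 peak. The remaining 2 were on contigs, at chrUn_random C (57.7 kb) and D (59.98 kb). Each stretch is bounded by hnRNP L peaks by definition, and in locus 8 A the peak at its far end was the wide unpartnered untreated one. Gaps in the mm9 assembly were not looked up here, so whether the empty stretches hold sequence to which reads could align was not tested.

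The last comparison asked which other targets lay inside the loci. Only numbered chromosomes and X were compared, because the 8 other lists held 0 peaks on contigs. On chromosome Y the other targets had between 2 and 25 peaks per list, and 0 of them lay in the Y locus or in the 100 kb before it in either condition. Over the 8 loci on numbered chromosomes and X (1691.7 kb), H3K4me3 peaks covered 1.74% (untreated) and 1.66% (Adriamycin) of the bases, against 2.38% and 2.18% of those outside the loci. H3K27me3 covered 1.89% and 1.798%, against 3.83% and 2.86%. H3K79me2 covered 2.51% and 2.07%, against 5.27% and 4.93%, and Pol II 1.78% and 0.980%, against 2.93% and 2.07%. Summed over the 8 loci, all 4 targets thus covered less than outside in both conditions, by these values without a test. Chromosome 17 went the other way for all 4, with H3K4me3 over 4.59% and 3.63% of the locus, H3K27me3 over 8.78% and 5.75%, H3K79me2 over 11.1% and 9.21% and Pol II over 6.78% and 2.64%. On X, H3K27me3 covered 5.43% and 6.16%, above the values outside. H3K4me3 covered 2.04% and 3.04% of the X locus, above the value outside only after Adriamycin. At 13 B, H3K4me3 covered 3.19% and 2.78%, also above the values outside.

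Flanks were the 100 kb on each side of the loci (on X only before it). Summed over the 8 loci, 3 of the 4 targets had lower values in the flanks than in the loci. Loci with a chain in both conditions and in 1 condition were not separated in these sums. In the flanks H3K4me3 covered 0.884% and 0.740%, Pol II 0.956% and 0.671%, and H3K79me2 1.95% and 1.803%. H3K27me3 covered 2.35% of the flanks in untreated cells and 1.70% after Adriamycin, above and below the loci in that order. Single loci went both ways. H3K79me2 covered more of the flanks than of the locus at 8 B (10.9% and 9.95% against 0.830% and 0.338%). The same held for H3K79me2 on chromosome 7 (1.39% and 1.57% against 0%). At 8 B, H3K4me3 (3.91% and 3.21% against 1.02% and 0.842%) and Pol II (2.72% and 1.93% against 0.684% and 0.343%) also covered more of the flanks. The reverse held on chromosome 17 for all 3. There H3K79me2 covered 0.637% and 0.249% of the flanks against 11.1% and 9.21% of the locus. H3K4me3 covered 1.03% and 0.76% against 4.59% and 3.63%, and Pol II 0.44% and 0.26% against 6.78% and 2.64%.

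**Figure D4:**
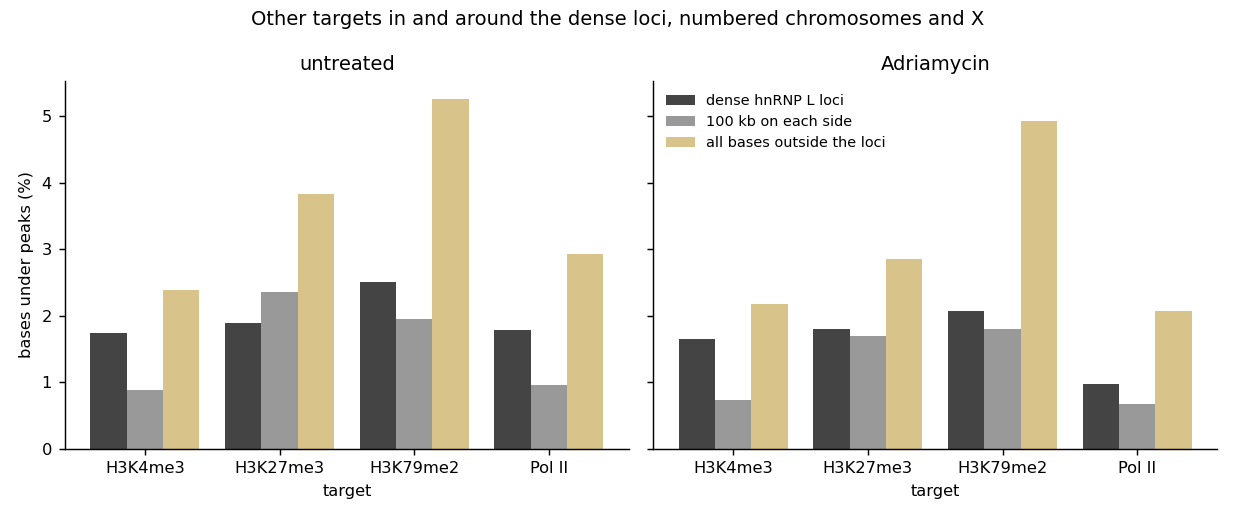
Share of bases under peaks (y axis, %) of H3K4me3, H3K27me3, H3K79me2 and Pol II (x axis) in the 8 loci on numbered chromosomes and X, in the flanking 100 kb and in all bases outside the loci, for untreated cells (left) and Adriamycin (right). H3K79me2 has the widest gap between the loci (2.51% and 2.07%) and the bases outside (5.27% and 4.93%).

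The loci differed in which marks they held. Those with a chain in both conditions (chromosomes 5, 7, 8 A, 8 B and X, 1038.2 kb) had H3K79me2 over 0.873% of the bases (untreated) and 0.597% (Adriamycin) and Pol II over 0.938% and 0.682%. The 3 loci with a chain in 1 condition (653.5 kb) had H3K79me2 over 5.12% and 4.40% and Pol II over 3.12% and 1.45%, so that the untreated values were near those outside the loci. H3K4me3 covered 0.970% and 1.05% of the former and 2.95% and 2.62% of the latter. H3K27me3 did not split this way, with 1.82% and 2.10% of the former and 2.01% and 1.31% of the latter, where all its peaks lay on chromosome 17. These are sums, and single loci departed from them. Locus 13 A, with a chain in 1 condition, had H3K79me2 over only 0.574% and 0.379% and Pol II over 1.23% and 0.587%. Locus 8 A, with a chain in both, had H3K79me2 over 3.32% and 2.44% and Pol II over 2.55% and 1.66%.

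The chromosome 7 locus was empty of histone marks. It had 0 peaks of H3K4me3, H3K27me3 and H3K79me2 in both conditions, and 1 untreated Pol II peak (0 after Adriamycin) with a score of 54.45, close to the lowest scores in the lists (50). On chromosome 5, H3K79me2 had 0 peaks in either condition, Pol II had 2 untreated peaks and 1 after Adriamycin, and H3K4me3 had 2 and 2. H3K27me3 had 7 and 12 peaks on chromosome 5, with highest scores of 142.73 and 89.21. Dense hnRNP L at these loci thus stood with few or no peaks of promoter or gene-body marks. Their flanks of 100 kb on each side were also poor in them. Those of chromosome 5 held 0 peaks of H3K4me3, H3K79me2 and Pol II in both conditions. Those of chromosome 7 held 0 peaks of H3K4me3 and Pol II, and 5 H3K79me2 peaks in each list.

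Locus 8 B held 1 place with promoter-type signal, near its end. H3K4me3 peaked there with a score of 1635.77 in untreated cells and 1294.54 after Adriamycin, with H3K79me2 (124.81 and 126.3) and Pol II (633.1 and 112.5) beside it. Weaker peaks at the same place were an untreated H3K79me2 peak (89.99) and an Adriamycin H3K4me3 peak (67.09). Elsewhere in 8 B the other targets had 1 peak, an untreated Pol II peak with a score of 174.04. H3K27me3 had 0 peaks in 8 B in both conditions. The flanks of 8 B were richer, since H3K79me2 covered 10.9% and 9.95% of them and only 0.830% and 0.338% of the locus. Locus 8 A held 3 H3K4me3 peaks in each list, with highest scores of 943.34 and 742.01, and 12 and 10 peaks of H3K79me2. The X locus held H3K4me3 (3 and 5 peaks) and H3K27me3 (8 and 12 peaks) and 0 H3K79me2 peaks in either condition.

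The chromosome 17 locus and locus 13 B held the strongest peak within the 8 loci in 6 of the 8 lists. Locus 13 A held none of these peaks. On chromosome 17 the untreated lists had H3K79me2 at 6471484-6476691 (score 2939.88), H3K4me3 at 6474394-6476688 (score 2187.44) and Pol II at 6428815-6429562 (score 2194.56), and none of these 3 overlapped an hnRNP L peak. H3K27me3 had 20 peaks there in untreated cells and 18 after Adriamycin, with the strongest untreated one at 6488927-6489541 (score 732.31), overlapping an hnRNP L peak. Loci 13 A and 13 B had 0 H3K27me3 peaks in both conditions. At 13 B an H3K79me2 peak at 66690308-66695363 had a score of 3100 after Adriamycin, and it overlapped an hnRNP L peak. After Adriamycin the strongest H3K4me3 peak (score 1748.78) lay on X at 166434761-166436356 and overlapped an hnRNP L peak at its edge, and the strongest H3K27me3 peak on X at 166504693-166506211 (score 473.71).

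**Figure D5:**
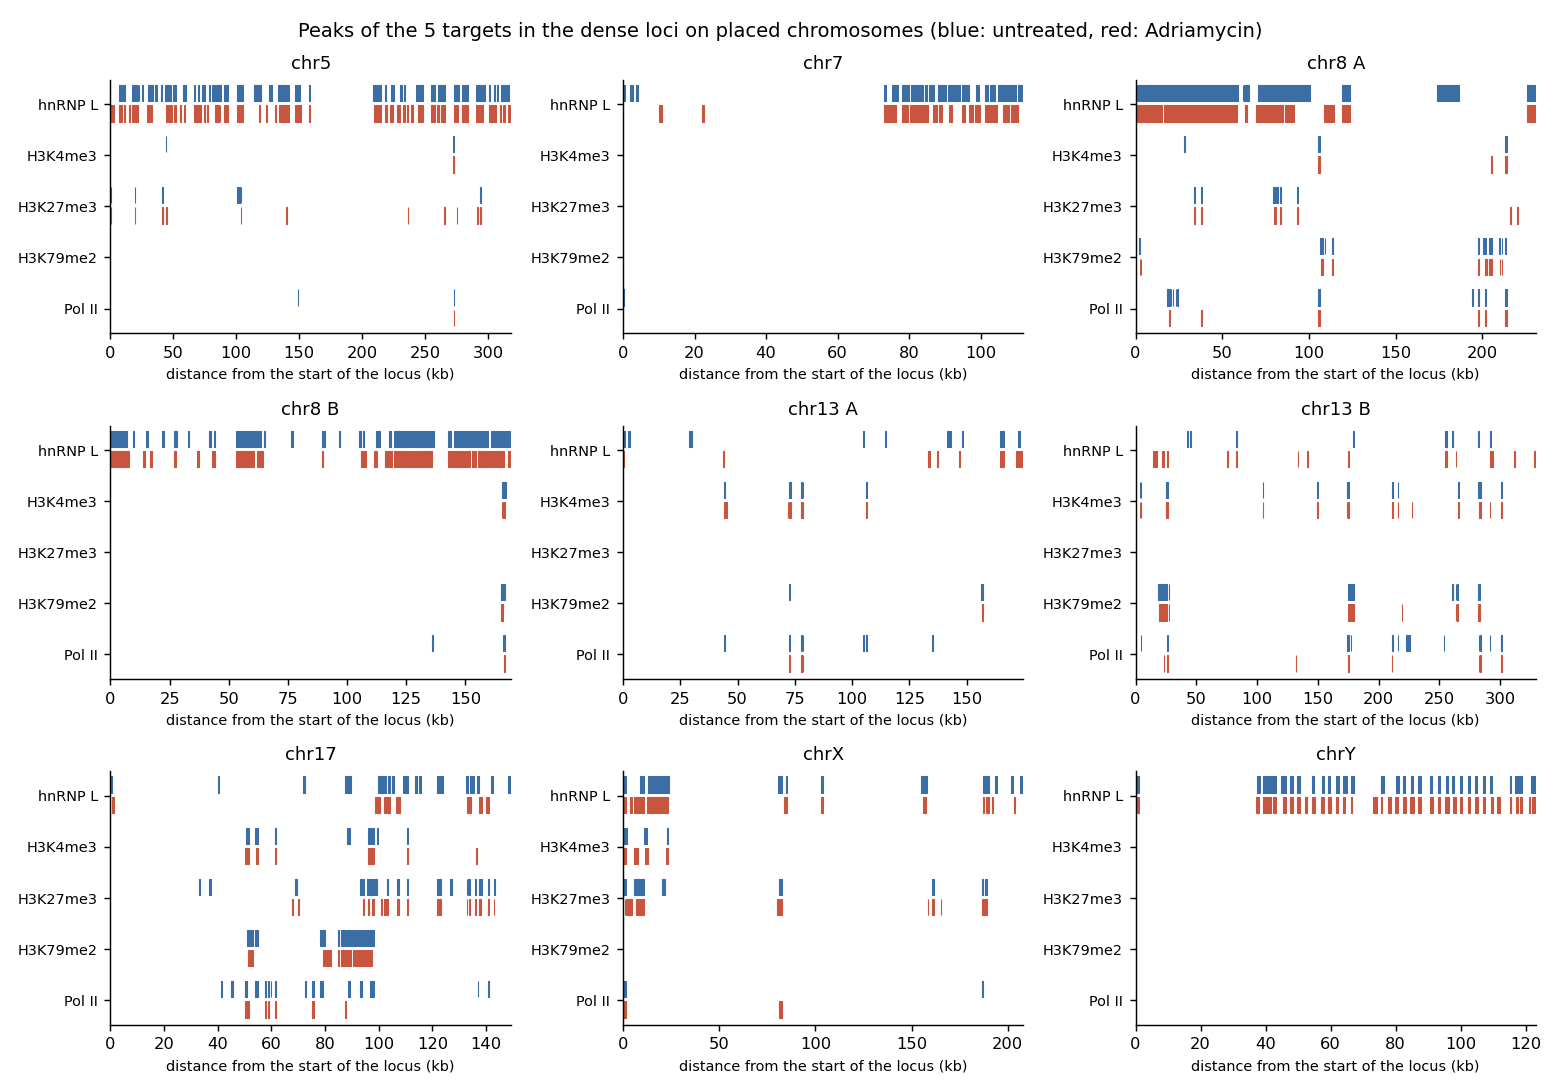
Peaks of hnRNP L and the 4 other targets (y axis) along the 9 loci on placed chromosomes (x axis, kb from the start of the locus), with untreated peaks in blue and Adriamycin peaks in red. The chromosome 7 and Y loci hold almost only hnRNP L, and chromosome 17, 13 B and 8 A hold the most peaks of the other targets.

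Few chain peaks overlapped another target directly. On numbered chromosomes and X, 19 of 173 untreated chain peaks overlapped H3K27me3 (10.98%, 6.74 to 16.6%), against 14.4% of all hnRNP L peaks there, and 19 of 164 after Adriamycin (11.6%, 7.12 to 17.5%), against 12.7%. Pol II overlapped 11 (6.36%, 3.22 to 11.1%) and 6 (3.66%, 1.35 to 7.79%), against 12.5% and 9.86%. H3K4me3 overlapped 9 (5.20%, 2.41 to 9.65%) and 8 (4.88%, 2.13 to 9.39%), against 4.52% and 4.21%. H3K79me2 overlapped 4 (2.31%, 0.633 to 5.81%) and 6 (3.66%, 1.35 to 7.79%), against 7.31% and 7.69%. These backgrounds include the chain peaks themselves and the distal chromosome 4 chains, so the other hnRNP L peaks on numbered chromosomes and X were set beside them as well. Of those, 13.9% and 13.3% overlapped Pol II, above the chain intervals in both conditions. For H3K27me3 they were 18.7% and 16.4%, above the interval in untreated cells and within it after Adriamycin. For H3K79me2 (5.27% and 3.96%) and H3K4me3 (2.55% and 2.18%) they lay within the chain intervals. In the distal chromosome 4 chains H3K79me2 overlapped 19.5% and 23.3% and H3K27me3 2.96% and 2.45%. The differences themselves were not tested.

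Seen from the other targets, most H3K27me3 peaks of the loci with a chain in both conditions overlapped hnRNP L. In these 5 loci, 19 of 21 untreated H3K27me3 peaks overlapped an hnRNP L peak, and 18 of 31 after Adriamycin. Of all H3K27me3 peaks on numbered chromosomes and X, 0.163% and 0.155% did so. Pol II overlapped hnRNP L at 14 of 19 and 4 of 10 peaks in these loci, against 0.169% and 0.15% of all. H3K4me3 did so at 6 of 9 and 8 of 12 peaks, against 0.109% and 0.0935%, and H3K79me2 at 3 of 14 and 4 of 11, against 0.114% and 0.113%. Of the 14 untreated Pol II peaks, 7 were neighbouring peaks of locus 8 A that all overlapped 1 hnRNP L peak. Since the loci were chosen for dense hnRNP L, a high share is built into the choice and is a description only.

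Pol II was the target that differed most in number between the lists inside the loci. The untreated list had 58 Pol II peaks in the 8 loci and the Adriamycin list 28, out of 81069 and 59426 in all. Fewer Adriamycin peaks were listed at 8 A (12 and 6), 13 A (7 and 3), 13 B (16 and 8) and 17 (16 and 7). At 8 A, 7 of the 12 untreated peaks lay close together at 1 hnRNP L peak. Such neighbouring peaks are counted separately in these numbers and in the partner shares. Of the 58, 22 had a Pol II partner after Adriamycin (37.9%, 25.5 to 51.6%), against 52.0% of all Pol II peaks on numbered chromosomes and X. Of the 28, 22 had an untreated partner (78.6%, 59.0 to 91.7%), against 73.9%. H3K4me3 had 35 and 45 peaks, H3K27me3 41 and 49, and H3K79me2 38 and 40. For H3K4me3, 31 of 35 (88.6%) and 37 of 45 (82.2%) had a partner, against 85.5% and 84.2% of all. For H3K27me3, 29 of 41 (70.7%) and 31 of 49 (63.3%) did, against 58.8% and 73.0%. For H3K79me2, 31 of 38 (81.6%) and 35 of 40 (87.5%) did, against 81.0% and 82.0%. The backgrounds of these 3 targets lay within the exact 95% intervals of the loci in both conditions.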

How the data were processed

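Each library was used as the peak list that the authors deposited, with a chromosome, start, end, name and score per peak. CASAVA 1.8.2, MACS 1.4.1 and the mouse build mm9 are named in the submitters' processing notes. The deposited scores run from 50 upwards, which is a p-value of 1e-05 if they are 10 times the negative log10 of p, as MACS of this generation writes them. Control libraries, duplicate reads and depth are not described in the labels. Starts were converted to 1-based coordinates on mm9.

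From the lists, peaks were chained as described, loci were the overlapping chains of both conditions, and overlaps needed at least 1 bp. The bases outside the loci were counted up to the highest peak end of each chromosome over all lists. Shares carry exact Clopper-Pearson 95% intervals. The chain and overlap steps were tested on simulated data. Overlaps and intervals were computed in Python 3.11.15 with pandas 2.3.3, SciPy 1.17.1 and numpy 2.4.6, and plots drawn with matplotlib 3.10.9.

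The rule for the chains, the comparisons and the regions named were chosen with earlier results of these data known. The regions named are every chain, the strongest hnRNP L peak of the 3 largest, the groups near the threshold and the strongest peak of each other target. The joint loci, the spacing classes, the score classes and the empty stretches were chosen after the values were seen, as were the strongest peaks without a partner. No sequence of mm9 was used here.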

Additional observations from a re-analysis of the deposited data

How the results depend on the processing

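The 14 main values gave 114 values under alternative settings, and 82 stayed within the interval of the main value or, for numbers of chains, within 1.5 times of it. The number of chains (12 untreated and 13 Adriamycin) went to 28 and 26 with at least 5 peaks, to 7 and 7 with hnRNP L peaks within 1 kb merged, and to 6 and 7 on numbered chromosomes and X. The share of hnRNP L peaks in chains (26.2% and 28.1%) was 22.1% and 21.9% with gaps of at most 50 kb, 33.4% and 34.8% with 200 kb, 35.8% and 36.4% with at least 5 peaks, 15.3% and 17.2% after merging and 18.6% and 19.7% on numbered chromosomes and X, and 29.5% in untreated cells with scores of at least 100. The share of chain peaks with a partner (80.9% and 80.1%) was 94.5% and 95.5% with scores of at least 100 and 69.9% and 72.0% on numbered chromosomes and X. In untreated cells it was also 74.3% with gaps of 200 kb, 73.1% with at least 5 peaks and 75.4% when a partner had to overlap 50% of the shorter peak, and after Adriamycin 86.6% with gaps of 50 kb and 85.2% in loci with a chain in both conditions, the last chosen after the data were seen. Overlap with H3K27me3 was 5.78% and 2.44% with H3K27me3 scores of at least 100, and 17.6% after Adriamycin with hnRNP L scores of at least 100. After Adriamycin, overlap with H3K4me3 was 1.61% with gaps of 50 kb and 1.47% with hnRNP L scores of at least 100, and overlap with Pol II was 1.22% with Pol II scores of at least 100. The cause was not tested. Of 48 alternative values for bases under the other targets in the chains, 17 moved by over 1.5 times. Read depth is not in the lists, so a missing peak may lie below the calling threshold. With 1 library per target and condition, no library could be left out. No paired analysis was possible because each group holds 1 library.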
